A study of Triticum aestivum with 18 samples.

Results

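Transcripts of 3 wheat genes that handle hydrogen peroxide or glutathione were followed in root apices with and without aluminium (Al): the catalase gene wcat1, the peroxidase gene Prx113-F and the glutathione S-transferase gene GSTZ1. These are 3 of the 553 genes named in the annotation. Members were all probe rows that the platform annotation, directly or through a RefSeq synonym, assigns to these genes. That gave 6 of the 45220 rows of the array: 2 for wcat1 (probes 30550 and 1398), 3 for Prx113-F (25823, 19662 and 25974) and 1 for GSTZ1 (18201). The annotation gives the probes of a gene one and the same source sequence, so they are not independent measurements of it. The probe sequences were not used here, so which of the homoeologous copies of hexaploid wheat, or of rye copies, a probe detects is not known.

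The genotypes compared were bread wheat (Triticum aestivum) cultivar Chinese Spring (CS) and the wheat-rye addition lines 3R and 6R, which have the full wheat genome and in addition 1 pair of rye (Secale cereale) chromosomes, 3R or 6R. All seedlings grew in nutrient solution at pH 4.0, and at an age of 4 days they were moved for 24 h to the same solution with 200 µM AlCl3 (Al samples) or without it (control samples), and were sampled at 5 days. Each of the 6 groups held 3 samples, called biological replicates in the labels, and each sample pooled 9 root tips. The Al and control sample of a replicate shared a 2-colour array, 1 in Cy3 and 1 in Hyper 5, which gave 9 arrays. By the scanner file names, replicates 1 and 2 of CS lay on another slide than replicates 1 and 2 of 3R and 6R. Only the replicates 3 of all lines shared a slide. Differences between CS and the addition lines are therefore partly confounded with the slide.

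Catalases split hydrogen peroxide into water and oxygen without a reducing partner and work mainly in peroxisomes. Class III plant peroxidases are secreted haem enzymes that use hydrogen peroxide to oxidise phenolic compounds, among them the building blocks of lignin, and so act on the cell wall. Glutathione S-transferases of the zeta class isomerise maleylacetoacetate in the breakdown of tyrosine. Al in acid solution stops root growth at the apex, and oxidative stress is among its known effects there.

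All values are log2 intensities as the authors deposited them. The lowest value of the table is 5.62, a linear intensity of 49.2, and a level under 6.3, which is where the mean of 37.6% of all rows lies, is called near the floor below, because changes there are compressed. The response to Al is the difference in log2 intensity between the Al and the control sample of an array, averaged over the 3 arrays of a line with a term for the dye, and errors are standard errors (SE) of that limma fit. A call means that the p, adjusted by Benjamini-Hochberg across the whole table of 45220 rows, was under 0.05. The arrays with Al in Hyper 5 were replicate 2 of CS, replicate 2 of 3R and replicate 1 of 6R, and the scanner files of all 3 carry the replicate number 2, so that dye orientation and that number cannot be told apart. In samples of whole root tips, fewer cells of a type and less RNA per cell cannot be told apart.

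Probe 30550 of wcat1 rose with Al in all lines, by a similar amount in each. In CS, the control samples of replicates 1, 2 and 3 read 7.23, 7.37 and 8.39 and the Al samples 8.25, 9.96 and 9.08. In 3R, the controls read 7.08, 6.76 and 6.65 and the Al samples 8.02, 8.89 and 7.64. In 6R, the controls read 7.26, 7.83 and 8.68 and the Al samples 10.20, 8.94 and 9.20. Al and control samples did not overlap in 3R and 6R, whereas in CS the highest control lay above the lowest Al sample, and within each array the Al sample was the higher one in 9 of 9 arrays.

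The fitted rise of this wcat1 probe was 1.71 ± 0.17 on the log2 scale in CS (SE, n = 3 arrays, 3.28-fold, adjusted p = 0.000292), 1.64 ± 0.17 in 3R (3.11-fold, adjusted p = 0.000824) and 1.80 ± 0.17 in 6R (3.47-fold, adjusted p = 0.000219). For comparison, 22.9% of all rows were called in CS (11.6% higher and 11.4% lower with Al), 14.9% in 3R (7.71% higher and 7.19% lower) and 27% in 6R (13.7% higher and 13.3% lower). The mean response of the lines was 1.72 ± 0.10, which is rank 534 from the top of 45220 rows. No difference of its response between lines passed. The differences were -0.08 for 3R minus CS (95% interval -0.61 to 0.46), 0.08 for 6R minus CS (-0.45 to 0.62) and -0.16 for 3R minus 6R (-0.69 to 0.38), so differences of up to about these bounds are not shown to be absent.

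The size of the wcat1 rise went with the dye orientation. The mean ratio was 0.88 over the 6 arrays with Al in Cy3 and 2.55 over the 3 arrays with Al in Hyper 5, and the fitted dye term was 0.84 ± 0.10 (Hyper 5 over Cy3, adjusted p = 0.000371). From the arrays with Al in Cy3 alone, the rise was 0.86 in CS (adjusted p = 0.00878), 0.97 in 3R (adjusted p = 0.00856) and 0.81 in 6R (adjusted p = 0.0127). With no dye term in the fit the rises were 1.43, 1.36 and 1.52 and none was called (adjusted p = 0.182, 0.299 and 0.145).

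**Figure D1:**
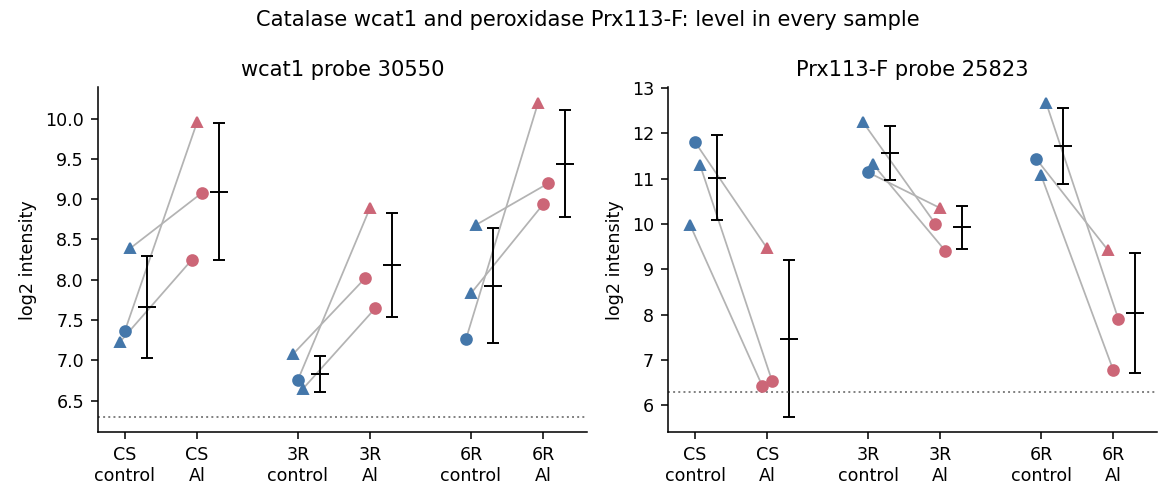
Log2 intensity (y axis) of wcat1 probe 30550 (left) and Prx113-F probe 25823 (right) in the control (blue) and Al (red) samples of CS, 3R and 6R (x axis). Circles are Cy3 and triangles Hyper 5 samples, grey lines join the samples of an array, black bars are mean ± SD (n = 3) and the dotted line marks 6.3. Every grey line rises on the left and falls on the right, and the Prx113-F Al samples of 3R (9.41 to 10.35) stay higher than 2 of the 3 Al samples of CS.

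The second wcat1 probe, 1398, lay near the floor and was not called in any line. Its lowest group mean was 5.96, in the 3R controls, and the widest group was the 6R controls, where replicate 2 read 6.88 against 6.02 and 6.01 in the others. Its responses were 0.13 ± 0.13 in CS (adjusted p = 0.604), 0.17 ± 0.13 in 3R (adjusted p = 0.538) and -0.04 ± 0.13 in 6R (adjusted p = 0.906). The ratio was above 0 in 7 of 9 arrays. The wcat1 rise therefore stands on 1 of the 2 probes.

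Probe 25823 of Prx113-F fell with Al in all lines, and less so in 3R than in the other two. In CS, the controls of replicates 1, 2 and 3 read 9.98, 11.81 and 11.29 and the Al samples 6.43, 9.46 and 6.52. In 3R, the controls read 12.25, 11.14 and 11.31 and the Al samples 10.01, 10.35 and 9.41. In 6R, the controls read 11.44, 11.07 and 12.67 and the Al samples 9.42, 6.78 and 7.91. In each line the Al samples lay below all controls. The single Hyper 5 sample among the Al samples of a line was the highest of its group in each line, and the Cy3 Al samples of CS came close to the floor, so the fall in CS may be compressed.

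The fitted fall of this Prx113-F probe was -3.24 ± 0.26 on the log2 scale in CS (SE, n = 3 arrays, 9.48-fold, adjusted p = 0.000115), -1.33 ± 0.26 in 3R (2.52-fold, adjusted p = 0.0132) and -3.38 ± 0.26 in 6R (10.4-fold, adjusted p = 8.95e-05). The ratio was below 0 in 9 of 9 arrays, from -4.77 to -0.79. The mean of the lines was -2.65 ± 0.16, rank 119 from the bottom of 45220 rows. Here too the orientation mattered, with a mean ratio of -3.59 over the arrays with Al in Cy3 and -1.72 over those with Al in Hyper 5 (dye term 0.93 ± 0.16, adjusted p = 0.00198). The call in 3R was lost without 3R replicate 1 (-1.35, adjusted p = 0.0624), without 3R replicate 2 (-0.99, adjusted p = 0.193), without the dye term (-1.64, adjusted p = 0.276), without the array pairing (-1.33, adjusted p = 0.753) and with the slide as a further term (-1.19, adjusted p = 0.0627), while the arrays with Al in Cy3 alone gave -2.07 (adjusted p = 0.00501).

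The other Prx113-F probes passed in CS and in the mean of the lines, and not in 3R or 6R. Probe 19662 read 7.98, 10.18 and 8.65 in the CS controls and 6.06, 7.66 and 6.09 in the Al samples, a fall of -2.26 ± 0.31 (adjusted p = 0.00169). Probe 25974 read 7.58, 9.84 and 8.37 in the CS controls and 6.05, 7.48 and 5.97 in the Al samples, a fall of -1.99 ± 0.36 (adjusted p = 0.00572). Both had Al samples of CS at the floor in replicates 1 and 3, so these folds are not exact. The CS calls were lost without the array pairing (adjusted p = 0.0538 and 0.0724) and with the slide term (adjusted p = 0.0531 and 0.111), and that of 25974 also without CS replicate 2 (-1.39, adjusted p = 0.0595).

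In 3R, probe 19662 stood at -0.42 ± 0.31 (adjusted p = 0.509) and probe 25974 at -0.46 ± 0.36 (adjusted p = 0.526). Their 3R ratios were -1.53, 0.05 and 0.02 for probe 19662 and -1.73, 0.32 and -0.30 for probe 25974 in replicates 1, 2 and 3. Replicate 1 thus gave most of the negative mean of either probe in 3R. In 6R the ratios were below 0 in all 3 arrays, at -0.77 ± 0.31 for 19662 (adjusted p = 0.124) and -0.86 ± 0.36 for 25974 (adjusted p = 0.129). In the mean of the lines the probes stood at -1.15 ± 0.19 (adjusted p = 0.00193) and -1.11 ± 0.22 (adjusted p = 0.00455), where 36.2% of all rows were called (17.2% higher and 19% lower).

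**Figure D2:**
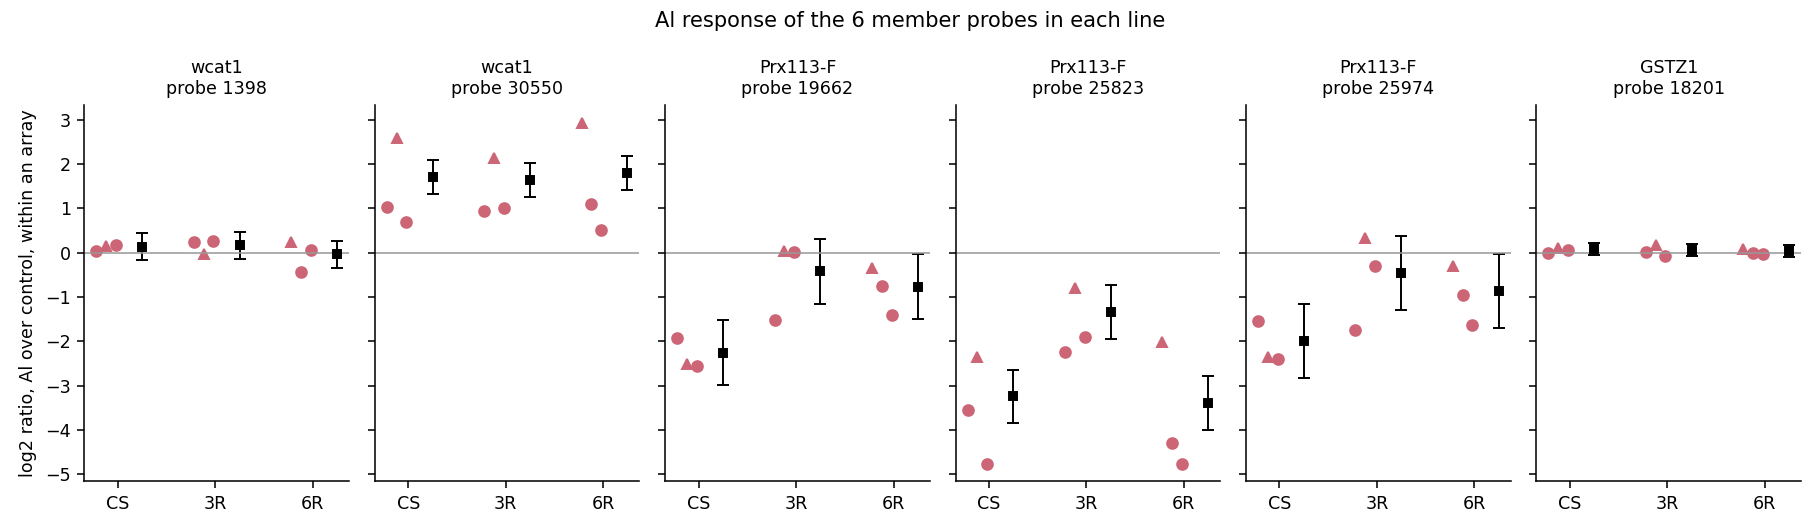
Log2 ratio of the Al to the control sample of an array (y axis) for each member probe in CS, 3R and 6R (x axis), with circles for arrays with Al in Cy3 and triangles for Al in Hyper 5. Black squares are the fitted responses with 95% intervals. wcat1 probe 30550 is above 0 in 9 of 9 arrays, Prx113-F probe 25823 below 0 in 9 of 9, and wcat1 probe 1398 and GSTZ1 stay near 0.

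The response of Prx113-F probe 25823 in 3R differed from those of the other lines, narrowly. It was less negative in 3R than in CS by 1.91 ± 0.36 (95% interval 1.07 to 2.75, adjusted p = 0.0473) and than in 6R by 2.05 ± 0.36 (1.22 to 2.89, adjusted p = 0.0499), where 1.84% and 1.09% of all rows were called. Between 6R and CS it differed by -0.14 ± 0.36 (-0.98 to 0.70, adjusted p = 0.978), and 0.318% of rows were called there. At matched dye 3R had the least negative ratios, while the order of CS and 6R turned with the dye: with Al in Cy3 the ratios were -2.24 and -1.91 in 3R, -3.55 and -4.77 in CS and -4.30 and -4.77 in 6R, and with Al in Hyper 5 they were -0.79 in 3R, -2.34 in CS and -2.03 in 6R. On the slide that, by the scanner file names, held replicate 3 of every line with Al in Cy3, the ratios were -4.77 in CS, -1.91 in 3R and -4.77 in 6R, and those of wcat1 probe 30550 were 0.69, 1.00 and 0.51.

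Both calls depended on single arrays, and the direction did not. Leaving out 1 array at a time, the difference between 3R and CS ranged from 1.59 to 2.25. It was called without CS replicate 1 (adjusted p = 0.0344), 6R replicate 1 (0.0474) and 6R replicate 3 (0.0401). It was not called without CS replicate 2 (0.108), CS replicate 3 (0.135), 3R replicate 1 (0.18), 3R replicate 2 (0.0824), 3R replicate 3 (0.208) or 6R replicate 2 (0.0775). The difference between 3R and 6R ranged from 1.81 to 2.37 and was called only without CS replicate 1 (0.0372), with an adjusted p of 0.0501 to 0.223 for the other 8 arrays.

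The weaker Prx113-F probes gave differences of the same sign between 3R and CS that did not pass, 1.84 ± 0.44 for 19662 (adjusted p = 0.105) and 1.53 ± 0.50 for 25974 (adjusted p = 0.268). By fitted value alone, they stood apart from probe 25823 in 6R. There probe 25823 responded about as in CS, whereas 19662 and 25974 stood nearer to their 3R values, with 6R minus CS at 1.50 ± 0.44 (adjusted p = 0.325) and 1.13 ± 0.50 (adjusted p = 0.57). The 6R controls of 19662 and 25974 had means of 7.34 and 7.51, against 8.94 and 8.60 in CS. Their Al means were alike, at 6.51 and 6.54 in 6R and 6.60 and 6.50 in CS. The lowest 6R Al samples, 6.10 and 6.21, were near the floor, so the 6R falls of these probes may be compressed too. For 19662 and 25974 the 3R minus 6R difference was 0.35 (95% interval -0.67 to 1.36) and 0.40 (-0.76 to 1.55). Whether the probes differ from each other in 6R was not tested.

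The GSTZ1 probe lay near the floor in every sample. It read 5.88 to 6.15 over all 18 samples, and 19.3% of rows had a lower mean. Its responses were 0.08 ± 0.06 in CS (adjusted p = 0.477), 0.06 ± 0.06 in 3R (adjusted p = 0.66) and 0.03 ± 0.06 in 6R (adjusted p = 0.806), with 5 of 9 ratios above 0. Near the floor a change of the transcript would be compressed.

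**Figure D3:**
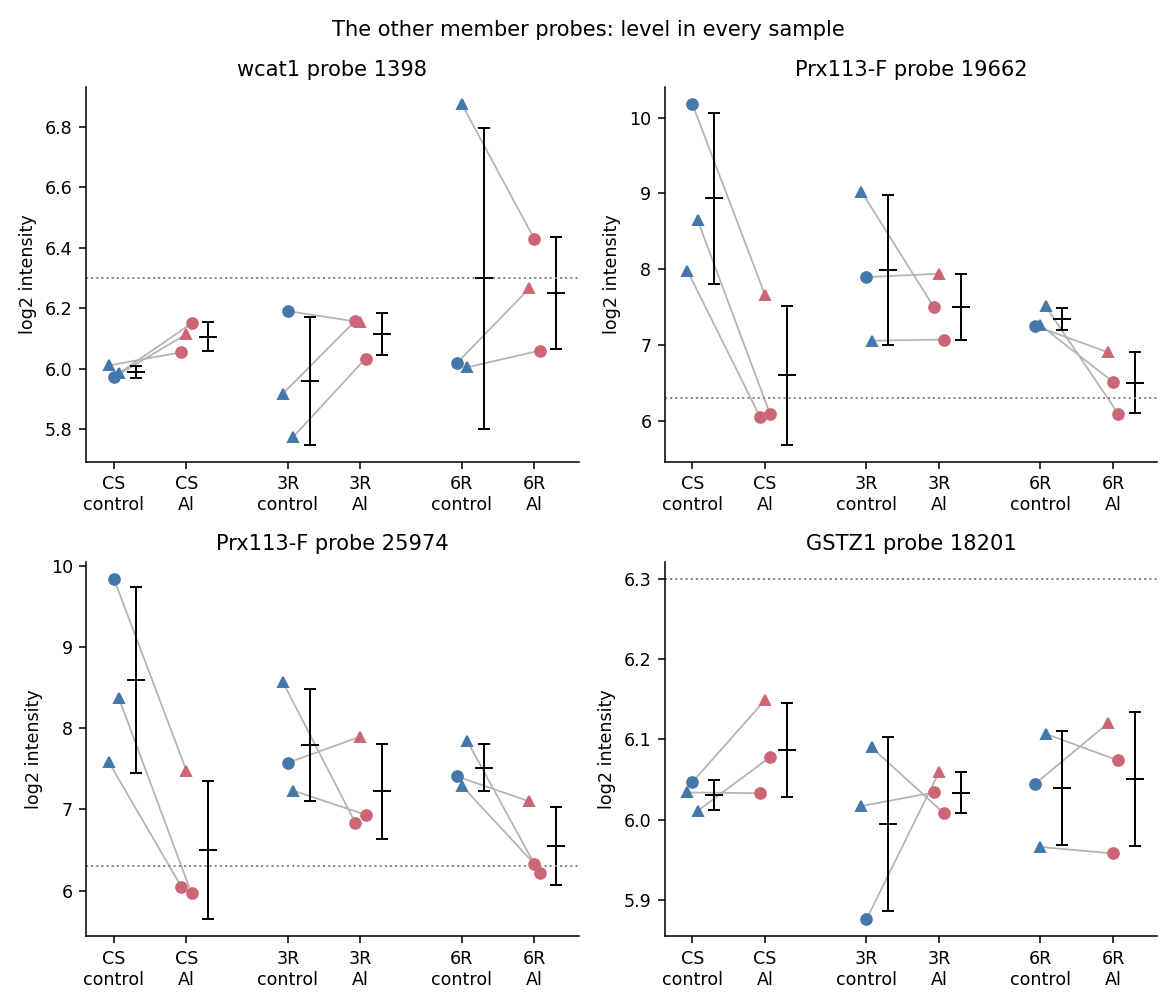
Log2 intensity (y axis) of the other member probes in each control (blue) and Al (red) sample of CS, 3R and 6R (x axis), drawn as for the leading probes, with a y range of its own in each panel. wcat1 probe 1398 and GSTZ1 lie around 6, and the Prx113-F probes have Cy3 Al samples of CS under 6.3.

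The groups were then ordered by level. The deposited samples of different lines have different medians, 0.24 lower in 3R than in CS and 0.11 lower in 6R, and levels between lines are read against that shift. For wcat1 probe 30550 the order from the top was 6R Al (9.44 ± 0.66, SD, n = 3), CS Al (9.10 ± 0.85), 3R Al (8.18 ± 0.64), 6R control (7.92 ± 0.71), CS control (7.66 ± 0.63) and 3R control (6.83 ± 0.22). Neighbours overlapped throughout, except that all CS controls lay above all 3R controls. For Prx113-F probe 25823 the order was 6R control (11.73 ± 0.84), 3R control (11.57 ± 0.59), CS control (11.03 ± 0.94), 3R Al (9.92 ± 0.48), 6R Al (8.03 ± 1.32) and CS Al (7.47 ± 1.72), and all neighbours overlapped.

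Between lines, 1 of 36 level comparisons of member probes was called. In Al samples, Prx113-F probe 25823 was 2.45 ± 0.64 higher in 3R than in CS (adjusted p = 0.0391), against 6.38% of rows called (0.429% for 6R against CS and 3.58% for 3R against 6R), and 2.69 higher after each sample was centred on its median (adjusted p = 0.0247). That call was lost without 7 of the 9 arrays in turn (2.10 to 3.13 over all 9) and without the dye term (adjusted p = 0.145), and a slide term was not tried for levels. In control samples the same probe differed by 0.54 ± 0.64 between 3R and CS (adjusted p = 0.815). The level of wcat1 probe 30550 was lower in 3R than in 6R by -1.26 ± 0.32 in Al samples (adjusted p = 0.0527) and by -1.10 ± 0.32 in controls (adjusted p = 0.208), and lower in 3R than in CS by -0.91 and -0.83 (adjusted p = 0.134 and 0.245), none of them called. Median centring made these differences smaller, to -1.13 and -0.97 for 3R minus 6R and to -0.67 and -0.59 for 3R minus CS, and none was called. As deposited, the difference between 3R and 6R in Al samples was called without CS replicate 1, an array of neither line (-1.26, adjusted p = 0.0299). It was not called without any other array (adjusted p = 0.0717 to 0.185), nor without the dye term (adjusted p = 0.429). No member probe was called in the control samples by limma (3 of 18 comparisons had an unadjusted p under 0.05), where 2.87% of rows were called for 3R against CS, 0.0619% for 6R against CS and 1.23% for 3R against 6R.

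Over the 6 member probes, 1 rose, 3 fell and 2 did not pass in CS, and in 3R and in 6R 1 rose, 1 fell and 4 did not pass, where 22.9%, 14.9% and 27% of all rows were called in CS, 3R and 6R. The median response of the members was -0.96 in CS, -0.18 in 3R and -0.40 in 6R, where the medians of all rows were -0.01, -0.01 and 0.00. The counts in CS include 3 probes of a single gene, and the medians include the same 3 probes. Another 2 of the 6 member probes lay near the floor. The members, and the gene lists used below, were chosen with earlier results of these data known. Their contrast with all rows is therefore not independent evidence.

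Other redox genes were looked up by a list of symbols for catalases, peroxidases, superoxide dismutases, the ascorbate-glutathione cycle, glutathione transferases, thioredoxins and peroxiredoxins, and oxidases. Beside the members it found 6 probes of 3 genes, and none of superoxide dismutase or ascorbate peroxidase. In the mean of the lines 3 of these 6 rose, none fell and 3 did not pass, with a median of 0.26 against -0.01 for all rows, of which 36.2% were called and 17.2% rose. The 3 probes that rose all belong to 1 gene, Trx-H, an h-type thioredoxin that reduces disulfides in the cytosol: 33381 (0.36 ± 0.08, adjusted p = 0.0113), 38437 (0.33 ± 0.08, adjusted p = 0.0151) and 40093 (0.37 ± 0.09, adjusted p = 0.0163).

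The fourth Trx-H probe, 9659, stood at 0.20 ± 0.08 (adjusted p = 0.0822). The ratios of these probes also went with the dye orientation. For 33381 the mean ratio was 1.66 with Al in Cy3 and -0.94 with Al in Hyper 5, and for 38437, where the dye term was the smallest of the 4 Trx-H probes, it was 0.57 and 0.08. In single lines 1 of the 6 passed, 33381 in 3R (0.52 ± 0.14, adjusted p = 0.0467). Prx1, assigned to the peroxidases by its symbol alone, and Trx-M, a chloroplast-type thioredoxin, lay near the floor at -0.05 ± 0.04 (adjusted p = 0.456) and -0.04 ± 0.05 (adjusted p = 0.648).

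COMT1, an O-methyltransferase that makes lignin monomers, was the only gene found for phenylpropanoid and tyrosine metabolism. Its probe 19362 rose in each line, by 1.20 ± 0.19 in CS (adjusted p = 0.00303), 0.88 ± 0.19 in 3R (adjusted p = 0.0192) and 1.09 ± 0.19 in 6R (adjusted p = 0.00414), with 9 of 9 ratios above 0. Its probe 21116 stood at 0.23 ± 0.14 in the mean (adjusted p = 0.279), with 3 of 9 ratios above 0. Its mean ratio was -0.76 with Al in Cy3 and 1.23 with Al in Hyper 5 (dye term 1.00 ± 0.14, adjusted p = 0.000904). As with wcat1, the rise stands on 1 of 2 probes. No probe was found for other enzymes of peroxisomes.

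**Figure D4:**
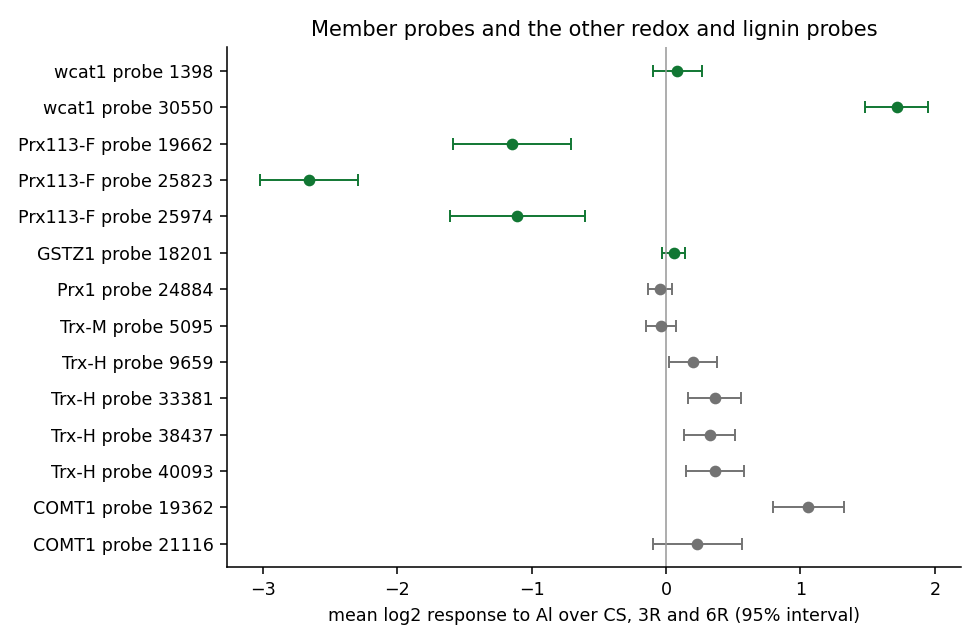
Mean log2 response to Al over CS, 3R and 6R (x axis) with 95% intervals for the member probes (green) and for the other redox and lignin probes found (grey), 1 probe per row (y axis). wcat1 probe 30550 (1.72) and COMT1 probe 19362 (1.06) lie highest, the Prx113-F probes (-2.65, -1.15 and -1.11) lowest, and the Trx-H probes between 0.20 and 0.37.

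The named genes of most like pattern were taken by Pearson's r over the 18 samples, among 185 probes of 77 named genes that span at least 1 log2 unit. These samples share arrays and dyes, so r is a description. For wcat1 probe 30550 they were U2AF65a, a splicing factor subunit (r = 0.922), LEA, a late embryogenesis abundant protein gene (r = 0.754), and the phytochelatin synthase gene PCS1 (r = 0.732). U2AF65a rose by 1.38 in CS, 0.56 in 3R and 1.35 in 6R. For Prx113-F probe 25823 they were the beta-glucosidase genes TaGlu1a (r = 0.944) and Taglu1b (r = 0.927) and the protein disulfide isomerase gene PDI (r = 0.914).

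TaGlu1a changed by -4.45 in CS, -2.30 in 3R and -4.81 in 6R, and Taglu1b by -2.79, -1.0 and -2.77. The least negative value of each was in 3R, as for Prx113-F probe 25823. Both genes were chosen by their r with this probe over the same samples, so the shared order is not independent evidence. For probe 19662 the closest were avnla, an avenin-like gene (r = 0.816), TaGlu1a (r = 0.754) and WPEAMT, a phosphoethanolamine methyltransferase gene (r = 0.742). Probe 25974 had the same 3 genes, at r = 0.795, 0.813 and 0.8. For wcat1 probe 1398 no r exceeded 0.646 (PCS1), and its span rests on a single 6R control sample.

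Marker genes of root, seed and green tissue were also looked up. The 7 root marker probes, of the plasma membrane proton pump gene ha1 and the deoxymugineic acid synthase gene TaDMAS1, all lay above the floor, at mean levels of 8.44 to 12.92. Of 37 seed storage probes 32 lay near the floor. Of 23 photosynthesis probes 22 lay above it, at up to 11.69, most of them for the plastid gene rbcL. A level above the floor therefore does not tell root from green tissue here. Summed over the photosynthesis list, the log2 intensity was 14.03 to 15.37 in the control groups and 14.11 to 16.06 in the Al groups, and over the root list 14.25 to 15.61 and 12.98 to 15.00. The lists hold 23 and 7 probes, so their sums are not set against each other. With Al, 5 of the 7 root marker probes fell in 6R (median response -1.01), 1 of 7 in CS (-0.20) and 0 of 7 in 3R (-0.39), where limma gave 1 of 7 an unadjusted p under 0.05. Of all rows, 13.3% fell in 6R, 11.4% in CS and 7.19% in 3R. In the mean of the lines, 5 of the 23 photosynthesis probes rose and 4 fell, against 17.2% and 19% of all rows. The part of these shifts in the member responses was not tested.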

How the data were processed

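The deposited log2 intensities of 18 samples (45220 probe rows) were used as the authors gave them, and limma is named in the submitters' processing notes. How background was corrected and how arrays were normalized is not given in the sources used here. Sorted values agree to within 0.00641 between samples of a line and differ by up to 0.355 between lines, so the values look quantile normalized within each line, and levels across lines rest on separately normalized samples. Per the labels, channels of 2-colour arrays were treated as single samples. No detection call was used, so no fold is given as a bound, and the number of arrays limits the precision. Correlations between replicates over all rows were 0.941 to 0.98, and no columns were identical.

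Within-array log2 ratios were fitted with limma 3.58.1 in R 4.3.3 (a mean per line, a shared dye term, 5 residual and 2.61 prior degrees of freedom), with Benjamini-Hochberg adjustment over all rows. Levels between lines came from a fit of the 18 channels on group and dye, with arrays as random blocks (consensus correlation 0.625). The pairing comes from the shared arrays in the labels. Residuals correlated between the channels sharing an array (0.722 to 0.855 across rows). The p-values weigh a mean difference against the spread between these samples, pooled over all lines and moderated over all rows. The SE of a line therefore draws on all 9 arrays, while n = 3 counts the arrays of that line. The fits were run on simulated data with independent noise, to check that known added changes were returned. The simulated levels had no dye effect and no correlation within arrays, so they do not test the p-values of levels. Of 553 annotated symbols, 547 were found in the RefSeq gene table of the assembly IWGSC CS RefSeq v2.1, used for names alone. Named were all member probes, up to 10 other list probes, and per varying member probe the 3 most correlated named genes. TaGlu1a and Taglu1b, matched to the seed list by letters alone, were taken out of it. The members and lists were chosen with earlier results of these data known. Alternatives were the dye term, the pairing, the slide (inferred from scanner file names), dim probes, the variance prior, rescaling and leaving out each array. The slide, dim probes and the variance prior were varied for responses only, and the scaling for levels only. Arrays with Al in Cy3 alone were added after the data were seen.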

Additional observations from a re-analysis of the deposited data

Results flagged for a closer look

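The response of Prx113-F probe 25823 to Al differed between lines by the test of the difference itself, narrowly. It was less negative in 3R than in CS by 1.91 on the log2 scale (limma, adjusted p = 0.0473, the 3 ratios of 3R above all 3 of CS) and less negative in 3R than in 6R by 2.05 (adjusted p = 0.0499, the 3 ratios of 3R above 2 of the 3 of 6R and 1 of the ratios of 3R below the highest of 6R). Both calls were fragile. Over 15 alternatives to the fit, including each array left out, the call was kept in 5 for 3R minus CS. For 3R minus 6R it was kept in 2 of 15. Groups of 3 samples were too small for a search for single outlying samples.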

How the results depend on the processing

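Of 42 member responses and differences of responses, 14 were called, and none of these changed sign under any alternative. Of all rows, 22.9% were called in CS, 14.9% in 3R, 27% in 6R and 36.2% in the mean of the lines. For 3R minus CS, 6R minus CS and 3R minus 6R it was 1.84%, 0.318% and 1.09%. The 42 results are not independent, since the comparisons share arrays and 3 of the 6 probes are of Prx113-F. Without the dye term 8 of the 14 calls remained. Lost were those of wcat1 probe 30550 in CS (1.43), 3R (1.36) and 6R (1.52), and of Prx113-F probe 25823 in 3R (-1.64), for 3R minus CS (1.91) and for 3R minus 6R (2.05). Without the replicate block, that is the pairing by array, 7 of 14 remained. Lost were Prx113-F probes 19662 and 25974 in CS (-2.26 and -1.99) and in the mean of the lines (-1.15 and -1.11), and probe 25823 in 3R (-1.33), for 3R minus CS (1.91) and for 3R minus 6R (2.05). The slide as a further term left 9 of 14 and lost probes 19662 and 25974 in CS (-2.38 and -2.06) and probe 25823 in 3R (-1.19), for 3R minus CS (2.46) and for 3R minus 6R (2.05). On the arrays with Al in Cy3, 12 of 14 remained. Lost were both differences of probe 25823 (2.09 and 2.46), and probe 25974 was gained in 6R (-1.30). The variance prior with trend and robust estimation lost probe 25823 for 3R minus 6R (2.05). Without dim probes, where wcat1 probe 1398 and GSTZ1 dropped out, all 14 remained and Prx113-F probe 19662 in 6R (-0.77) and for 3R minus CS (1.84) and probe 25974 in 6R (-0.86) were gained. The fit to the arrays of 1 line kept every call of that line. The causes of the lost calls were not tested.

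Leaving out 1 array at a time gave ranges of -2.38 to -1.39 for probe 25974 in CS, -1.51 to -0.99 for probe 25823 in 3R, 1.59 to 2.25 for 3R minus CS and 1.81 to 2.37 for 3R minus 6R of that probe, and -0.95 to -0.55 for probe 19662 in 6R and 1.49 to 2.33 for 3R minus CS. Counts of all rows called moved more over the alternatives: from 2388 to 15588 in CS (10370 as reported), 735 to 11494 in 3R (6735), 2716 to 13886 in 6R (12214), 6240 to 20225 in the mean (16392), 21 to 1078 for 3R minus CS (831), 16 to 637 for 3R minus 6R (492) and 0 to 237 for 6R minus CS (144), the 0 being limma with the slide term, where 1766 rows had an unadjusted p under 0.05. The 1 called level difference, that of Prx113-F probe 25823 in Al samples, was kept by both rescalings and lost without the dye term and without the array as a random block. The share of higher rows among those called depended on the scaling: for 3R against CS it was 16.2% in Al samples as deposited, 69.8% after median centring and 42.6% after quantile normalization, and 7.25%, 69.5% and 29.1% in controls. In Al samples it was 25.3%, 41.8% and 40.4% for 6R against CS and 23.8%, 41.9% and 39% for 3R against 6R, and in controls 28.6%, 40% and 54.2% and 11.9%, 24.5% and 22.5%. Rows called ranged from 1493 to 4901 for 3R against CS in Al samples (2883), 876 to 1736 for 3R against 6R (1617), and in controls from 698 to 2512 (1297), 335 to 574 (555) and, for 6R against CS, 10 to 32 (28). The floor limits what can be said of GSTZ1 and of wcat1 probe 1398.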
